A study of Mus musculus with 18 samples.

Results

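The bone morphogenetic protein (BMP) pathway was followed across the 6 groups of the series through 10 genes, namely the ligands Bmp2, Bmp4 and Bmp7, the target genes Id1, Id2, Id3 and Id4, the feedback inhibitors Smad6 and Bambi, and the target Msx2. These 10 genes were chosen by symbol and make up 10 of the 49671 genes in the count table, and all 10 were found by their Ensembl identifiers in the GENCODE annotation of GRCm38. RNA from mouse embryonic stem (ES) cells grown in Matrigel, a gel of extracellular matrix, in N2B27 medium without serum was sequenced, with 3 samples in each group and 18 in all. Wild-type E14 ES cells at passage 20 were cultured for 48 h in DMSO, the solvent control, in CH, in 2i or in Fgf2/Activin. CH was 3 µM CHIR99021, which blocks the kinase Gsk3 and thereby stabilises β-catenin, the effector of Wnt, and 2i combined 3 µM CHIR99021 with 0.4 µM PD0325901, which blocks the kinase Mek. Of the growth factors in the Fgf2/Activin medium, Activin A was at 20 ng/ml and Fgf2 at 12 ng/ml. Esrrb fl/fl ES cells at passage 25, which carry Cre that tamoxifen activates, were grown in 3 µM CHIR99021 for 24 h, either untreated or after 1 day with 4-hydroxytamoxifen (4OHT), the agent that starts deletion of Esrrb. According to their labels, the Esrrb fl/fl cells came from Acr-EGFP transgenic mice. All lines had been kept in 2i with Lif on gelatin before the 3D culture, so every group started from cells that had been exposed to both inhibitors. No 4OHT-treated cells without floxed alleles were sequenced here, so the agent and the deletion cannot be told apart, and all Esrrb fl/fl samples came from cells of 1 strain label and passage.

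BMP ligands are secreted and bind pairs of receptor kinases at the cell surface, which phosphorylate Smad1, Smad5 and Smad9. Together with Smad4 these enter the nucleus and switch on target genes, of which the Id genes are the best known. Id proteins lack a DNA-binding region and hold E proteins away from DNA, and in ES cells BMP signalling through Id proteins is known for supporting self-renewal together with Lif. Smad6 blocks the receptor-regulated Smads, and Bambi is a receptor-like protein without kinase activity, so that both restrain the pathway that induces them.

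The total counts lay between 25388139 and 37158661 in the 12 wild-type samples and between 19915222 and 20140699 in the 6 samples of Esrrb fl/fl cells. Levels are given as CPM, counts of a gene per 1000000 counts of its library after scaling by the TMM method. Differences are log2 fold changes from edgeR's quasi-likelihood test, and for a call a gene had to change by more than 1 on this scale in either direction and to keep a p-value below 0.01 after Benjamini-Hochberg adjustment. The label of ES cells was checked by Pou5f1, which encodes Oct4 and was abundant in every group, with means between 602 CPM in DMSO and 1212 CPM in untreated Esrrb fl/fl cells. Esrrb itself had 109 to 142 CPM in the untreated and 58.9 to 63.8 CPM in the 4OHT-treated Esrrb fl/fl cells, so the groups did not overlap, but 1211 to 1333 counts per sample on the gene remained after 4OHT. The counts cover the whole gene and do not show the floxed part by itself. In wild-type cells Esrrb averaged 15.3 CPM in DMSO and 321 CPM in CH.

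The libraries with replicate number 1 stood apart from those numbered 2 and 3, over all genes and for several of the 10. In the wild-type groups the chi-square per gene between the counts of 2 samples was 29.8 to 65.9 between replicate 1 and another replicate and 2.86 to 8.57 between replicates 2 and 3, and in the Esrrb fl/fl cells 11.8 to 15.6 and 1.46 to 2.22. What the numbers share is not given in the labels. In CH and 2i, replicate 1 was the lowest sample for Bmp4 and Id3 and the highest for Id2 and Id4. In DMSO it was the highest for Id1, Bmp7, Id4 and Smad6, and in both groups of Esrrb fl/fl cells it was the highest for Id1, Id2, Id3, Id4 and Msx2. Samples of the same number deviated together across groups, though not every sample was most like its own number. Values from a fit with replicate number as a block are therefore given where the block changes a call. Results without replicate 1 of every group, a choice made after the data were seen, are given for each comparison, but not for every gene. Nanog, a gene of naive ES cells, was split in the same way in DMSO, with 67.9 CPM in replicate 1, 5.92 CPM in replicate 2 and 2.78 CPM in replicate 3, and its part in the split of the BMP genes was not tested. The plot of levels in each sample shows the split and the values of all 10 genes.

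**Figure D1:**
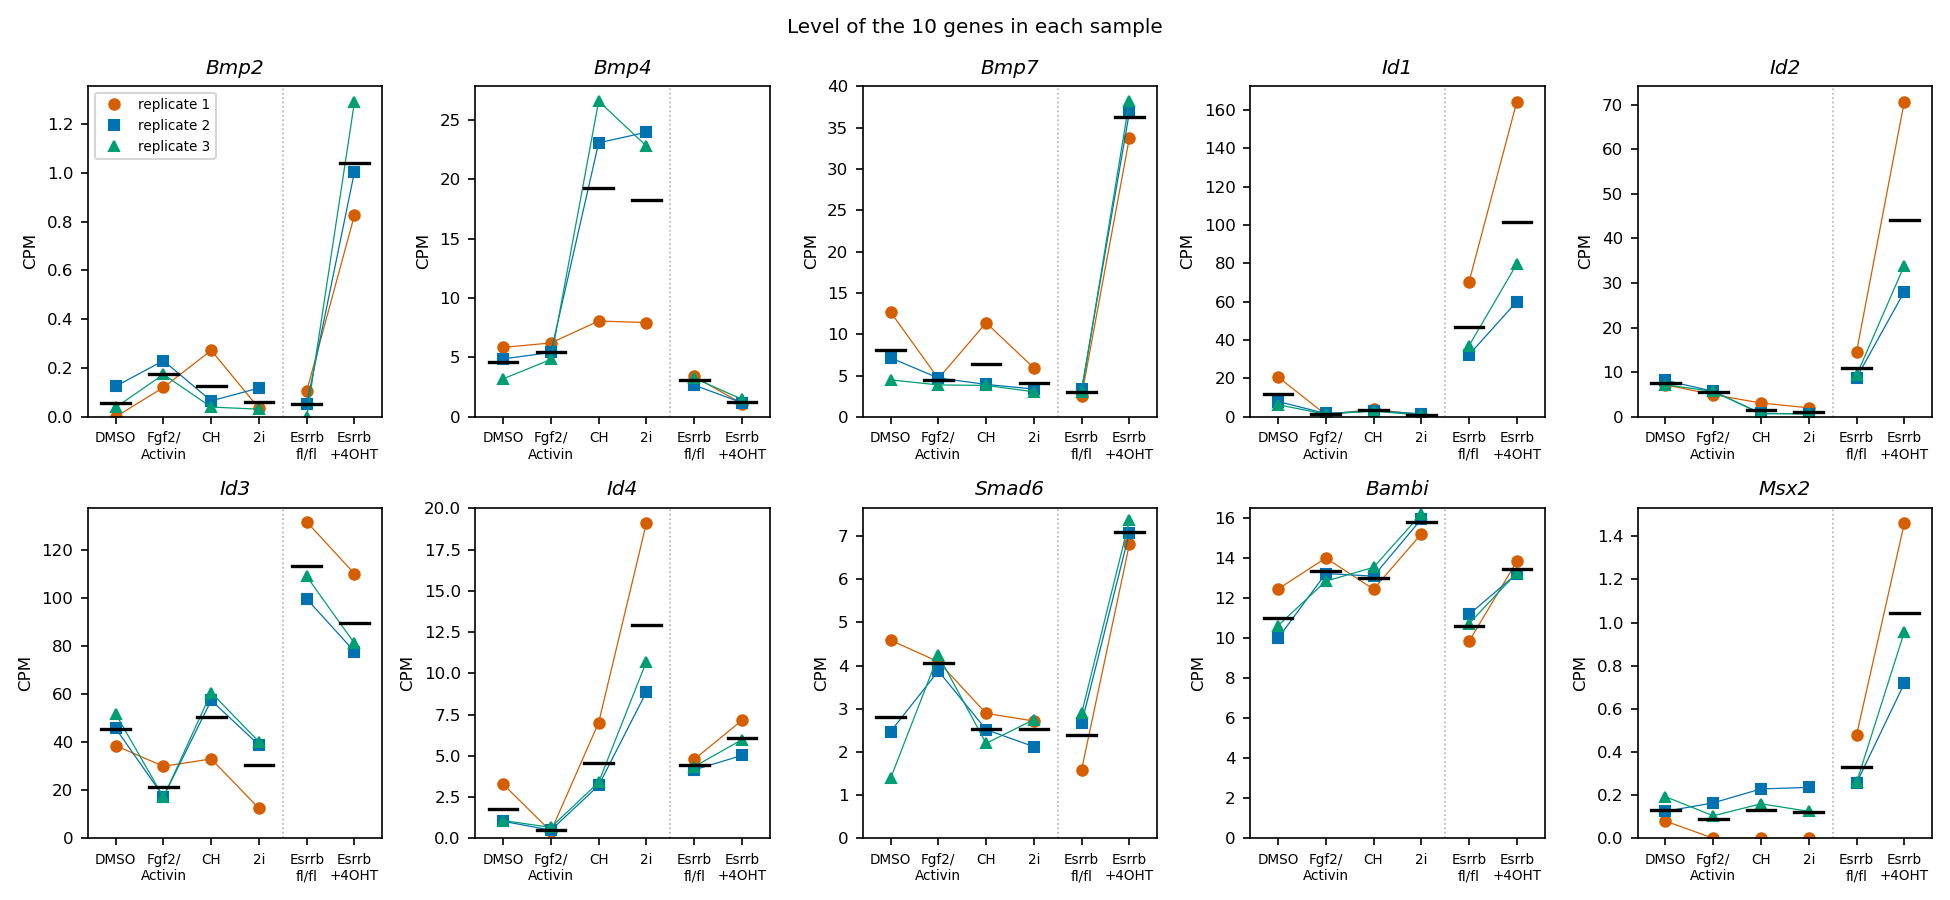
Level of each of the 10 genes in CPM (linear axes from 0, which differ between panels) in the 18 samples, with symbols and colours for the replicate numbers, thin lines joining samples of the same number within the wild-type or the Esrrb fl/fl cells, and black bars for group means. Bmp4 reached 23.1 to 26.6 CPM in replicates 2 and 3 of CH but 8.07 CPM in replicate 1, and Bmp7 lay between 33.8 and 38.3 CPM in all 3 samples of 4OHT-treated Esrrb fl/fl cells.

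The first comparison, CH against DMSO, asked what Gsk3 inhibition did to the pathway in 3D culture. Bmp4 rose while the target genes Id1 and Id2 fell, and Bmp7, Id3, Id4, Smad6 and Bambi were not called. Of the 10 genes, 8 were abundant enough to be tested in wild-type cells, and 3 of them were called, 1 higher and 2 lower. Among all 16413 genes tested, 17.7% were called, 7.51% higher and 10.2% lower. The median log2 fold change of the 8 genes was -0.0048 and that of all genes -0.0022. In bulk RNA, fewer cells that express a gene and less RNA per cell cannot be told apart, here and in every comparison that follows.

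Bmp4 lies on chromosome 14 of GRCm38, from 46383520 to 46390669 on the minus strand. It had 5.84, 4.88 and 3.20 CPM in replicates 1, 2 and 3 of DMSO and 8.07, 23.1 and 26.6 CPM in those of CH. All CH samples were above all DMSO samples, with replicate 1 of CH closest to them. Bmp4 rose by a log2 fold change of 2.04 ± 0.48 (SE, n = 3 per group, edgeR adjusted p = 0.00536), and by 2.60 ± 0.14 without replicate 1. Exons of Bmp4 share 89 bases, 3.96% of their length, with Gm15217 on the opposite strand, and the counting without strand cannot separate reads of that stretch.

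Id1, on chromosome 2 from 152736251 to 152737410 on the plus strand, went the other way. Its levels were 20.8, 7.98 and 6.29 CPM in DMSO and 3.92, 3.14 and 3.04 CPM in CH. The groups did not overlap, and DMSO replicate 1 was far above the other samples of its group. Id1 fell by 1.80 ± 0.42 on the log2 scale (edgeR adjusted p = 0.00512), and by 1.20 ± 0.21 without replicate 1. Id2, on chromosome 12 from 25093799 to 25097140 on the minus strand, had 7.18, 8.17 and 7.17 CPM in DMSO and 3.10, 0.75 and 0.72 CPM in CH. Again no sample of one group reached the other. Id2 fell by 2.29 ± 0.54 (edgeR adjusted p = 0.00569), and by 3.37 ± 0.19 without replicate 1.

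These 3 calls were not kept in every fit. When only the 6 samples of CH and DMSO were fitted, none of the 8 genes was called, with edgeR adjusted p-values of 0.0149 for Bmp4, 0.0246 for Id1 and 0.0210 for Id2. The share of all genes called in that fit is not given, so the loss cannot be read as particular to these genes. The calls of Bmp4 and Id2 were also lost without DMSO replicate 2 or 3 or CH replicate 2 or 3, and that of Id1 without DMSO replicate 1 or any of the 3 CH samples. Over these fits the log2 fold change stayed between 1.75 and 2.41 for Bmp4, between -3.34 and -1.94 for Id2 and between -2.09 and -1.08 for Id1, with adjusted p-values of at most 0.0245, 0.0253 and 0.0234.

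Id4, on chromosome 13 from 48261228 to 48266026 on the plus strand, had 3.28, 1.03 and 1.08 CPM in DMSO and 7.02, 3.20 and 3.40 CPM in CH. The replicate 1 libraries were the highest of both groups, and the highest DMSO sample lay above the CH sample numbered 2. Its log2 fold change was 1.32 ± 0.49 (edgeR adjusted p = 0.0487), which was not called. With the replicate block it was 1.37 ± 0.26 (adjusted p = 0.00107) and was called, as it was without DMSO replicate 1 (2.10 ± 0.45, adjusted p = 0.00408). The fit with the block called 4 of the 8 genes, beside 22.0% of all genes, and the fit without replicate 1 also called 4, beside 23.1%. Exons of Id4 share 171 bases, 4.44%, with A330033J07Rik and Gm49291 on the opposite strand.

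Id3, on chromosome 4 from 136143497 to 136145755 on the plus strand, was the most abundant Id gene per length in CH. It stood at 38.6, 45.8 and 51.8 CPM in DMSO and 33.1, 57.4 and 60.7 CPM in CH, which overlap, and its log2 fold change was 0.15 ± 0.39 (edgeR adjusted p = 0.789). Bmp7, on chromosome 2 from 172868012 to 172940321 on the minus strand, had 12.7, 7.14 and 4.47 CPM in DMSO and 11.4, 3.92 and 3.80 CPM in CH. Replicate 1 was the highest in both groups, and the log2 fold change was -0.35 ± 0.47 (edgeR adjusted p = 0.586). With single samples left out, the Bmp7 estimate ranged from -1.07 to 0.13 and was never called. Smad6, on chromosome 9 from 63953076 to 64022059 on the minus strand, differed by -0.16 ± 0.34 and Bambi, on chromosome 18 from 3507923 to 3516404 on the plus strand, by 0.24 ± 0.11. Neither was called, with adjusted p-values of 0.740 and 0.102.

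Bmp2, on chromosome 2 from 133552159 to 133562885 on the plus strand, and Msx2, on chromosome 13 from 53466884 to 53473074 on the minus strand, were hardly detected in wild-type cells. Group means of Bmp2 lay between 0.0546 CPM in DMSO and 0.175 CPM in Fgf2/Activin. No wild-type sample had more than 8 counts of either gene, and both were left out of the wild-type tests. About 119 bases of the longest Msx2 transcript, 4.85% of it, matched transcripts of 68 other genes at 95% identity or more, so a few of its reads may have been assigned among them.

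**Figure D2:**
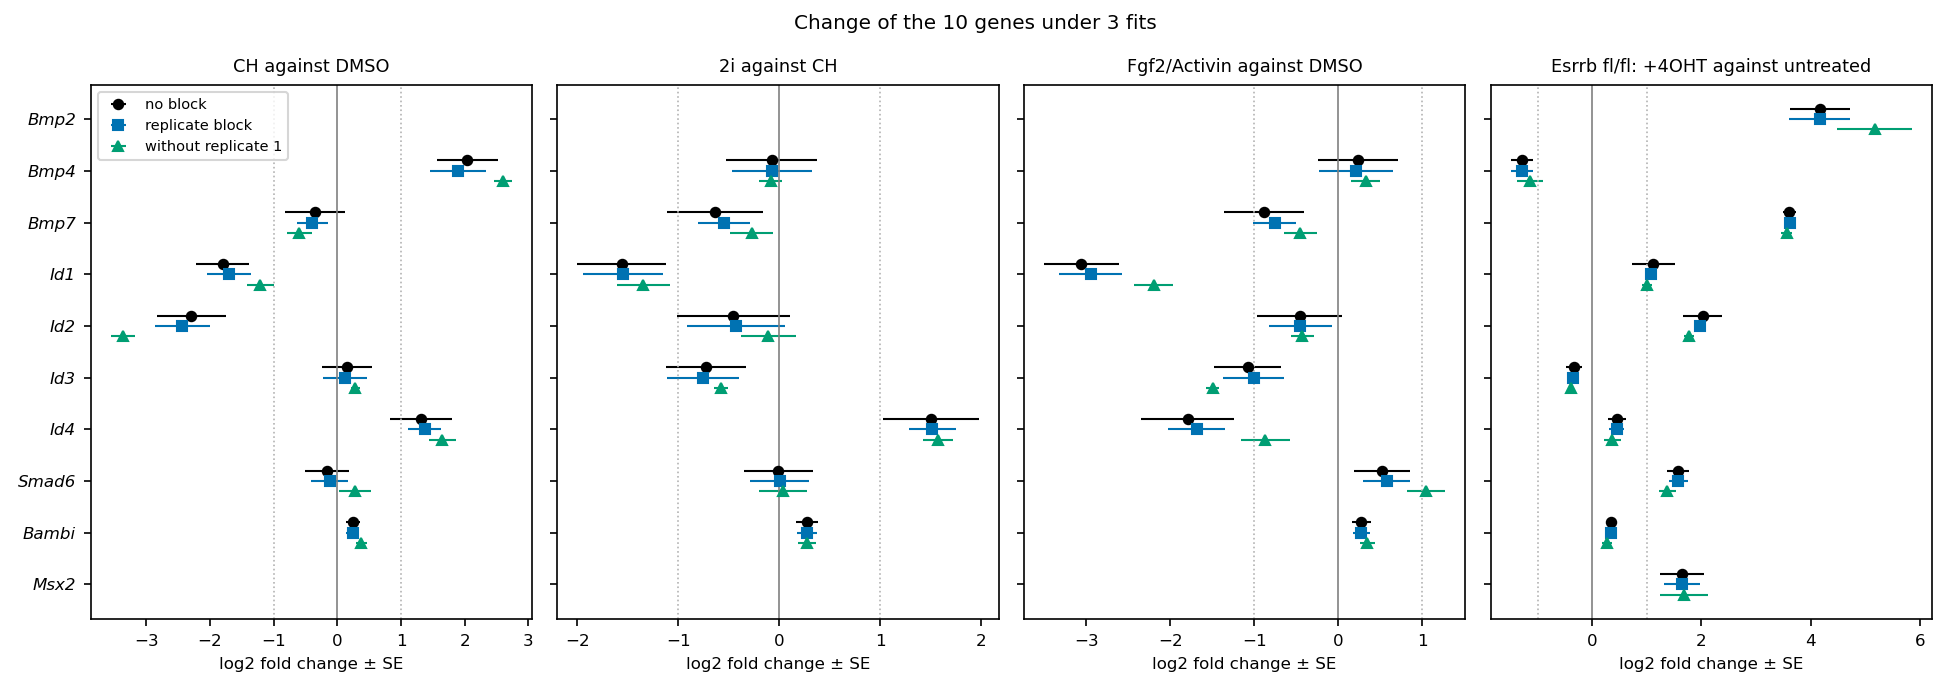
Log2 fold change ± SE of the 10 genes in 4 comparisons, each with 3 samples per group, from the fit without a block (black circles), with replicate number as a block (blue squares) and without replicate 1 of every group (green triangles). Dotted lines mark a log2 fold change of 1 in either direction. Bmp2 and Msx2 were tested in the Esrrb fl/fl cells only. Between CH and DMSO, Bmp4 was 2.04 without the block and 2.60 without replicate 1, and between the groups of Esrrb fl/fl cells the estimates of Bmp7 were 3.61 and 3.56.

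Stretches before the RefSeq starts of Id2, Id3 and Id4 are printed here because the Id promoters are textbook targets of BMP-activated Smads, and because Id2 was called lower in CH than in DMSO while Id3 and Id4 were not. RefSeq promoter windows, of 250 bases before and 50 after the start of each gene, were found for 6 of the 10 genes: Bmp4, Id2, Id3, Id4, Smad6 and Msx2. They were searched on both strands for GGCGCC, an element known from BMP-responsive promoters, for the SMAD box GTCT, for the TCF/LEF element CTTTGAT and for the ESRRB element AAGGTCA. The element GGCGCC was found in the windows of Id2 and Id4, against 11.9% of all 32851 windows, and in none of the other 4. GTCT, a motif so short that 88.0% of all windows hold it, was found in 5 of the 6 windows and not in that of Id4. CTTTGAT (3.73% of all windows) and AAGGTCA (4.72%) were found in none of the 6. The stretches are written 5′ to 3′ on the strand of the gene, in GRCm38 coordinates, with GGCGCC or GTCT in capitals:
Id2: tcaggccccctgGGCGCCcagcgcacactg
Id3: ggtggacccttggcgGTCTgttttgaataa
Id4: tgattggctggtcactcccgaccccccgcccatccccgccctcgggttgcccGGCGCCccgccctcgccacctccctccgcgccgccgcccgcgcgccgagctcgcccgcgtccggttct
The Id2 stretch is chr12:25096306-25096335 on the minus strand, from base -243 to base -214 counted from the RefSeq start, where GENCODE annotates an Id2 transcript, which starts further upstream, but no exon. The Id3 stretch is chr4:136143739-136143768 on the plus strand, from base -83 to base -54, within an exon that GENCODE gives to Id3 and outside coding sequence. The Id4 stretch is chr13:48260916-48261035 on the plus strand, from base -200 to base -81, within introns of A330033J07Rik and Gm49291 on the opposite strand. The 2 genes that share GGCGCC differed in direction between CH and DMSO, with a log2 fold change of -2.29 for Id2 and 1.32 for Id4, which was not called. A match is a description of these letters and not a binding site.

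Adding the Mek inhibitor was addressed by 2i against CH, in which both media held the same dose of CHIR99021. None of the 8 genes was called by edgeR, while 1.99% of all genes were called, 0.317% higher and 1.67% lower. An unadjusted p-value under 0.05 was found for 3 of the 8, and the share of all genes at that level is not given. The median log2 fold change of the 8 genes was -0.264, against -0.00326 over all genes. Id1 had 3.92, 3.14 and 3.04 CPM in CH and 1.01, 1.59 and 0.81 CPM in 2i. All 2i samples were below all CH samples, but the log2 fold change of -1.56 ± 0.44 missed the threshold (edgeR adjusted p = 0.0607). DESeq2's test called Id1 (adjusted p = 0.00777) and 3.32% of all genes it tested.

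Id4 was the member with the largest estimate in the opposite direction, with 7.02, 3.20 and 3.40 CPM in CH and 19.1, 8.88 and 10.7 CPM in 2i. The lowest 2i sample was above the highest CH sample. The log2 fold change of 1.50 ± 0.47 (edgeR adjusted p = 0.0889) was not called, but with the replicate block it was 1.52 ± 0.24 (adjusted p = 0.00144), the only one of the 8 genes to be called there, beside 4.09% of all genes. Without replicate 1, Id4 (1.57 ± 0.15) and Id1 (-1.35 ± 0.26) were both called, beside 4.67% of all genes. Bmp4 had 7.94, 24.0 and 22.8 CPM in 2i, with replicate 1 low as in CH, and the difference from CH was -0.08 ± 0.45 (adjusted p = 0.964). Id3 had 12.5, 38.9 and 40.2 CPM in 2i, and within each replicate number it was lower in 2i than in CH, but the difference of -0.72 ± 0.39 was not called (adjusted p = 0.368).

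Fgf2/Activin against DMSO compared the 2 cultures in which ES cells polarise. Id1 was the only one of the 8 genes called, and it fell. Of all genes 1.25% were called, 0.902% higher and 0.347% lower, and the median log2 fold change was -0.672 for the 8 genes and -0.0213 for all. Id1 had 1.11, 1.74 and 1.36 CPM in Fgf2/Activin, all below the lowest DMSO sample of 6.29 CPM. It fell by 3.06 ± 0.45 on the log2 scale (edgeR adjusted p = 0.00263), by 2.20 ± 0.23 without replicate 1 and by 2.35 ± 0.29 without DMSO replicate 1 alone. The call was lost without any of the 3 Fgf2/Activin samples, with adjusted p-values of up to 0.0203, and in a fit of only the 6 samples (adjusted p = 0.0303).

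The other Id genes were also lower on average in Fgf2/Activin than in DMSO, but none passed the test. Id4 had 0.42, 0.49 and 0.66 CPM in Fgf2/Activin, below every DMSO sample, and its log2 fold change of -1.79 ± 0.55 (edgeR adjusted p = 0.104) became -1.69 ± 0.34 with the replicate block (adjusted p = 0.00764), which was called. The block called 2 of the 8 genes and 2.58% of all genes. Id3 had 30.0, 17.3 and 17.1 CPM in Fgf2/Activin, again below every DMSO sample, and its difference was -1.08 ± 0.40 (adjusted p = 0.187). Without replicate 1, Id3 (-1.50 ± 0.07) and Smad6 (1.05 ± 0.23) were called beside Id1, whereas Id4 was not (-0.87 ± 0.29, adjusted p = 0.0443), and 3.04% of all genes were called. Smad6 had 4.09, 3.88 and 4.24 CPM in Fgf2/Activin and 4.59, 2.47 and 1.39 CPM in DMSO, where replicate 1 made the groups overlap.

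Between 2i and Fgf2/Activin, cultures that do not and do polarise, Bmp4 and Id4 were higher in 2i and Id2 was lower. These 3 of the 8 genes were called beside 23.5% of all genes, 9.13% higher and 14.4% lower, and the medians were 0.0693 for the 8 genes and 0.00215 for all. Id4 differed by a log2 fold change of 4.62 ± 0.57 (edgeR adjusted p = 5.11e-05), from 0.525 ± 0.123 CPM in Fgf2/Activin to 12.9 ± 5.46 CPM in 2i (mean ± SD, n = 3). Bmp4 had 6.23, 5.42 and 4.83 CPM in Fgf2/Activin, below all 2i samples, and differed by 1.73 ± 0.47 (adjusted p = 0.00992). With DESeq2's size factors its adjusted p-value was 0.0100197, just past the threshold. Id2 had 4.96, 5.72 and 5.70 CPM in Fgf2/Activin and 2.02, 0.68 and 0.69 CPM in 2i, a difference of -2.28 ± 0.55 (adjusted p = 0.00498), which was -3.05 ± 0.19 without replicate 1 and -2.99 ± 0.58 without 2i replicate 1 alone. The calls of Bmp4 and Id2 were lost without any of the Fgf2/Activin samples or 2i replicate 2 or 3, with adjusted p-values of up to 0.0386 and 0.0254. Without replicate 1, 4 of the 8 genes were called, Id3 (1.20 ± 0.07) being added, beside 27.6% of all genes.

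The comparison of 2i with Fgf2/Activin and the last 2 wild-type contrasts share samples with the comparisons before them. Their log2 fold changes follow from those earlier ones, so the values are given side by side without counting them as further evidence. Between 2i and DMSO, 4 of the 8 genes were called beside 22.3% of all genes. Bmp4 (1.97 ± 0.48) and Id4 (2.82 ± 0.50) rose and Id1 (-3.35 ± 0.45) and Id2 (-2.74 ± 0.56) fell, with edgeR adjusted p-values of 0.00541, 0.000743, 0.000108 and 0.00181. The call of Bmp4 was lost without DMSO or 2i replicate 2 or 3 and that of Id2 without 2i replicate 2 or 3, with adjusted p-values of up to 0.0251 and 0.0112. In a fit of only those 6 samples Bmp4 was not called (adjusted p = 0.0110). Without replicate 1 there were also 4 calls, beside 27.1% of all genes, and the log2 fold changes were 2.52 ± 0.14 for Bmp4, 3.22 ± 0.18 for Id4, -2.55 ± 0.23 for Id1 and -3.48 ± 0.18 for Id2. Leaving out DMSO replicate 1 alone gave 3.60 ± 0.47 for Id4 and -2.64 ± 0.29 for Id1, and leaving out 2i replicate 1 alone gave -3.44 ± 0.58 for Id2. Bambi was 12.4, 9.98 and 10.6 CPM in DMSO and 15.2, 15.9 and 16.2 CPM in 2i, without overlap, and its log2 fold change of 0.52 ± 0.11 (adjusted p = 0.00246) was under the minimum.

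For CH against Fgf2/Activin, Bmp4 (1.81 ± 0.47, edgeR adjusted p = 0.00957) and Id4 (3.11 ± 0.55, adjusted p = 0.000913) were higher in CH and called, beside 18.2% of all genes, 7.90% higher and 10.3% lower. Id2 was lower by 1.83 ± 0.54 (adjusted p = 0.0170), and with the block its log2 fold change of -1.98 ± 0.43 (adjusted p = 0.00230) was called, in a fit that called 22.6% of all genes. It was also called without CH replicate 1, at -2.88 ± 0.44 (adjusted p = 0.000513). Bmp4 was not called without CH replicate 2 or 3 or any of the Fgf2/Activin samples (1.50 to 2.18, adjusted p of up to 0.0383), nor in a fit of only those 6 samples (adjusted p = 0.0113). Without replicate 1, Bmp4 (2.27 ± 0.14), Id4 (2.51 ± 0.24), Id3 (1.78 ± 0.07) and Id2 (-2.94 ± 0.19) were called, beside 23.0% of all genes. DESeq2's test called 4 of the 8 genes, Id2 and Id3 among them, beside 17.2% of the genes it tested.

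Ordered by mean level in wild-type cells, Bmp4 was at 19.3 ± 9.84 CPM in CH, 18.2 ± 8.94 CPM in 2i, 5.49 ± 0.70 CPM in Fgf2/Activin and 4.64 ± 1.34 CPM in DMSO (SD, n = 3). The neighbours CH and 2i overlapped, as did Fgf2/Activin and DMSO, and the gap lay between these pairs. For Id2 these pairs stood the other way, from 7.51 ± 0.57 CPM in DMSO and 5.46 ± 0.43 CPM in Fgf2/Activin, whose samples did not overlap but were not called apart, to 1.52 ± 1.36 CPM in CH and 1.13 ± 0.77 CPM in 2i, which overlapped. Id4 ran from 12.9 CPM in 2i over 4.54 ± 2.15 CPM in CH and 1.80 ± 1.29 CPM in DMSO to 0.525 CPM in Fgf2/Activin, and Id1 from 11.7 ± 7.93 CPM in DMSO over 3.37 ± 0.48 CPM in CH to 1.40 ± 0.32 CPM in Fgf2/Activin and 1.14 ± 0.41 CPM in 2i, where the last pair overlapped. Id3 had its highest mean in CH, at 50.4 ± 15.1 CPM, followed by 45.4 ± 6.64 CPM in DMSO, 30.5 ± 15.6 CPM in 2i and 21.5 ± 7.37 CPM in Fgf2/Activin, and all neighbours in this order overlapped.

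Over the 12 wild-type samples, Bmp4 and Id2 had a Pearson correlation of -0.961 on log2(CPM + 1), and Bmp7 and Id1 of 0.703. These coefficients describe 4 cultures and a shared replicate structure, and the points are not independent. By the same measure the 3 genes most like Bmp4 were Mpped2 (0.990), Slc4a1 (0.975) and Pibf1 (0.971), and those most like Id2 were Synm (0.983), Klhdc2 (0.982) and Pfn2 (0.981). Id4 was followed most closely by Acss1 (0.990), Msantd4 (0.986) and Mfn1 (0.985), and Id1 by Olfr318 (0.945), Gm11620 (0.929) and Gata6 (0.924).

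To compare levels between the Id genes, CPM were divided by exon length in kb. Per kb, Id3 took between 49.8% and 89.9% of the summed Id level in every wild-type sample. Its share was 70.9% and 77.0% in replicates 2 and 3 of DMSO and 49.8% in replicate 1, where Id1 took 41.4%. In replicate 1 of 2i, Id4 took 36.5%, and in replicates 2 and 3 it took 8.99% and 10.6%. The summed Id level was 43.3, 36.1 and 37.6 CPM per kb in DMSO, 24.9, 35.9 and 37.7 in CH, 13.6, 25.7 and 26.2 in 2i and 19.8, 13.7 and 13.2 in Fgf2/Activin. All DMSO samples were above all 2i and Fgf2/Activin samples, whereas CH overlapped with DMSO.

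**Figure D3:**
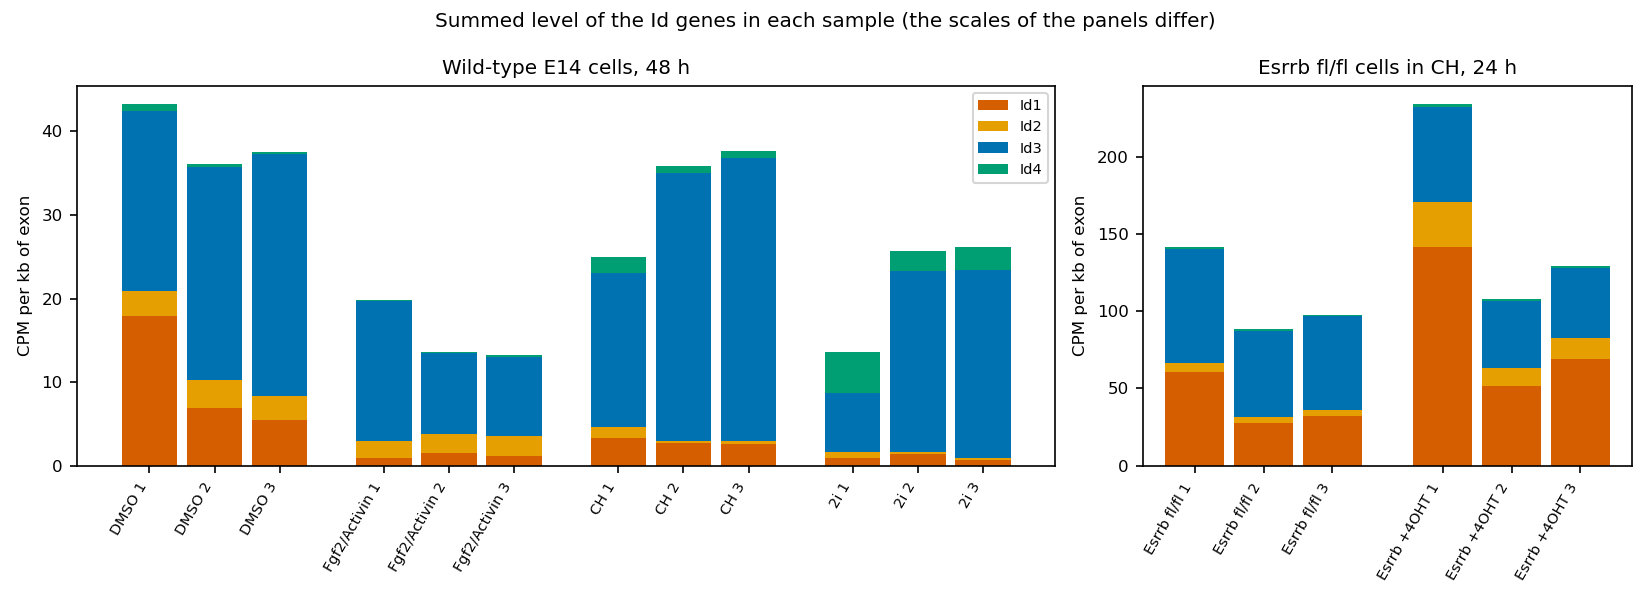
Summed level of Id1, Id2, Id3 and Id4 in CPM per kb of exon (stacked bars from 0) in each of the 18 samples, with the wild-type cultures on the left and the Esrrb fl/fl cells on the right, on different scales. Id3 makes up most of each wild-type bar except DMSO replicate 1, and the bars of Esrrb fl/fl cells reach 88.3 to 234 CPM per kb, with Id1 between 31.7% and 60.5% of each.

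The remaining comparison, 4OHT-treated against untreated Esrrb fl/fl cells in CH, addressed the loss of Esrrb under Gsk3 inhibition. Here the ligands moved in opposite directions, with Bmp7 and Bmp2 rising and Bmp4 falling, and Id2, Smad6 and Msx2 rose. All 10 genes were tested, and 6 were called, 5 higher and 1 lower, beside 16.7% of all 14893 genes, 12.8% higher and 3.87% lower. The median log2 fold change of the 10 genes was 1.34 and that of all genes 0.00214.

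Bmp7 had 2.55, 3.33 and 3.00 CPM in the untreated and 33.8, 36.9 and 38.3 CPM in the 4OHT-treated cells. The lowest treated sample was far above the highest untreated one, and replicate 1 was not apart. Bmp7 rose by a log2 fold change of 3.61 ± 0.12 (SE, n = 3 per group, edgeR adjusted p = 5.98e-07). Bmp2 had 2, 1 and 0 counts in the untreated and 17, 21 and 27 counts in the treated samples, which correspond to 0.83, 1.00 and 1.29 CPM after 4OHT. Since no untreated sample exceeded 3 counts, Bmp2 is given as at least 6.94-fold higher, against a floor of 3 counts per library, and was called with an edgeR adjusted p-value of 0.000251. That floor covers counting error only.

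Bmp4 behaved differently from the other ligands, with 3.40, 2.66 and 3.26 CPM in the untreated and 1.12, 1.20 and 1.48 CPM in the treated cells. The groups did not overlap, and Bmp4 fell by 1.29 ± 0.20 on the log2 scale (edgeR adjusted p = 0.000695). Per kb of exon, Bmp4 was the most abundant of the 3 ligands in untreated cells, with 1.38 ± 0.17 CPM per kb against 0.737 ± 0.097 for Bmp7 (SD, n = 3). After 4OHT Bmp7 stood at 9.03 ± 0.57 CPM per kb, Bmp4 at 0.563 ± 0.085 and Bmp2 at 0.293 ± 0.066.

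Among the target genes, Id2 rose, from 14.6, 8.76 and 9.31 CPM to 70.7, 28.0 and 33.9 CPM in replicates 1, 2 and 3. Replicate 1 was the highest of both groups, and still the groups did not overlap. The log2 fold change was 2.02 ± 0.35 (edgeR adjusted p = 0.00125), and 1.77 ± 0.10 without replicate 1. Id1 had 70.5, 32.4 and 37.1 CPM in the untreated and 164, 60.1 and 79.8 CPM in the treated cells, so it was higher after 4OHT within each number, but treated replicate 2 was below untreated replicate 1. Its log2 fold change of 1.12 ± 0.39 (edgeR adjusted p = 0.0360) was not called. With the replicate block it was 1.08 ± 0.06 (adjusted p = 2.25e-08) and was called, in a fit that called 7 of the 10 genes and 17.7% of all genes. It was also called without untreated replicate 1 (1.54 ± 0.39, adjusted p = 0.00949), without replicate 1 of both groups (1.01 ± 0.09), where again 7 of the 10 genes and 17.2% of all genes were called, and without the filter on low counts (adjusted p = 0.00862). Over all fits with single samples left out, the Id1 estimate ranged from 0.59 to 1.54, with edgeR adjusted p-values of up to 0.119.

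Id3 and Id4 stayed closer to the untreated level. Id3 had 132, 99.7 and 109 CPM before and 110.2, 77.8 and 81.2 CPM after 4OHT, lower within each number, and its difference was -0.34 ± 0.14 on the log2 scale (edgeR adjusted p = 0.0701). Id4 had 4.78, 4.15 and 4.35 CPM in the untreated and 7.15, 5.02 and 5.98 CPM in the treated cells, with no overlap and a log2 fold change of 0.45 ± 0.17 (adjusted p = 0.0424). Per kb, Id3 took 52.0% to 63.1% of the summed Id level in untreated and 26.3% to 40.2% in treated samples, and Id1 took 31.7% to 42.9% and 48.0% to 60.5%. The summed level was 142, 88.3 and 97.9 CPM per kb in the untreated and 234, 108 and 130 CPM per kb in the treated samples, higher after 4OHT within each number.

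The feedback inhibitors differed from each other in size. Smad6 had 1.59, 2.66 and 2.90 CPM in untreated and 6.81, 7.08 and 7.37 CPM in treated cells, and rose by 1.57 ± 0.21 (edgeR adjusted p = 0.000256). Bambi had 9.83, 11.2 and 10.7 CPM and then 13.8, 13.2 and 13.3 CPM, which did not overlap, but its log2 fold change was only 0.34 ± 0.10 (adjusted p = 0.0144). Msx2, which encodes a homeobox repressor, had 9, 5 and 5 counts in untreated and 30, 15 and 20 counts in treated samples, and rose by 1.64 ± 0.40 (edgeR adjusted p = 0.00680). That call was lost with DESeq2's test (adjusted p = 0.0146) and without 4OHT replicate 1 or 3 or untreated replicate 2 or 3, with adjusted p-values of up to 0.0312.

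Wild-type cells in CH and untreated Esrrb fl/fl cells in CH differ in line, passage and culture time, and these cannot be told apart. Their levels are therefore only set side by side. Id1 averaged 3.37 ± 0.48 CPM in wild-type CH and 46.7 ± 20.8 CPM in untreated Esrrb fl/fl cells, Id3 50.4 ± 15.1 and 114 ± 16.5 CPM, Id2 1.52 ± 1.36 and 10.9 ± 3.20 CPM, and Bmp4 19.3 ± 9.84 and 3.11 ± 0.39 CPM (mean ± SD, n = 3). Id4 (4.54 and 4.43 CPM) and Smad6 (2.54 and 2.38 CPM) had similar means in both.

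The other genes of the pathway were followed with a list of 51 ligands, receptors, Smads and their ubiquitin ligases, secreted antagonists, targets and E proteins. In wild-type cells 36 of them were tested. Between CH and DMSO, 5 were higher and 2 lower, 19.4% of those tested beside 17.7% of all genes. With the block 12 of 36 were called, 6 higher and 6 lower, beside 22.0% of all genes. Without replicate 1 there were 13 of 38, 6 higher and 7 lower, beside 23.1%. Smad7, an inhibitory Smad that also acts on Activin signalling, rose from 2.03 ± 0.80 to 24.9 ± 2.18 CPM (log2 fold change 3.59 ± 0.23, edgeR adjusted p = 8.03e-07). Fst, which encodes the Activin and BMP antagonist follistatin, rose by 2.59 ± 0.53, or by 1.76 ± 0.09 without replicate 1. Gdf3, a ligand that can inhibit BMPs, rose by 1.63 ± 0.08, and Tcf4, an E protein gene, by 1.37 ± 0.10. Chrd, which encodes the BMP antagonist chordin, fell by 2.18 ± 0.22.

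Between CH and DMSO none of the 10 receptors and co-receptors was called by edgeR or by DESeq2, and 1 was called with the block. An unadjusted p-value under 0.05 was found for 3 of them in both tests, and the share of all genes at that level is not given. Bmpr1a, a type I receptor for Bmp2 and Bmp4, had means between 92.9 CPM in 2i and 101 CPM in DMSO among the wild-type cultures. Smad4 lay there between 108 CPM in Fgf2/Activin and 113 CPM in DMSO. Bmpr2, also among the receptors, varied more, from 11.6 CPM in 2i and 13.9 CPM in DMSO to 23.2 CPM in Fgf2/Activin. Its samples in Fgf2/Activin were above all those of DMSO and 2i. The log2 fold changes, 0.74 ± 0.13 from DMSO to Fgf2/Activin and -0.996 ± 0.134 for 2i against Fgf2/Activin, were under the minimum. Bmpr1a, Smad4 and Bmpr2 are named here outside the rule for naming genes. Between Fgf2/Activin and DMSO, 2 of the 36 genes were called, 5.56% beside 1.25% of all genes, and both were higher, Smad7 by 5.27 ± 0.24, to 79.9 ± 7.30 CPM, and Hey1, a Notch and BMP target, by 1.37 ± 0.23. Without replicate 1 there were 4 of 38, beside 3.04% of all genes. Between 2i and CH only Msx1, a homeobox gene related to Msx2, was called, 2.78% of the list beside 1.99% of all genes, with a log2 fold change of -3.52 ± 0.38 from 3.90 to 0.335 CPM. DESeq2's test called 2 of 40 there, beside 3.32% of all genes it tested. With only the 6 samples compared, 1 of 34 genes was called between Fgf2/Activin and DMSO, in a fit whose share of all genes is not given. Between 2i and Fgf2/Activin 3 were higher and 8 lower, 30.6% beside 23.5% of all genes, among them Msx1 (-3.91 ± 0.38), Chrd (-2.44 ± 0.22), Gdf3 (1.79 ± 0.08), the co-receptor gene Rgma (1.78 ± 0.46) and Tcf4 (1.61 ± 0.10). For 2i against DMSO 5 were higher and 6 lower, 30.6% beside 22.3% of all genes, with Smad7 at 4.30 ± 0.23, Msx1 at -3.01 ± 0.38, Chrd at -2.19 ± 0.22, Gdf3 at 1.83 ± 0.08 and Tcf4 at 1.52 ± 0.10. For CH against Fgf2/Activin 4 were higher and 3 lower, 19.4% beside 18.2% of all genes, with Chrd at -2.43 ± 0.22, Fst at 2.28 ± 0.52, Smad7 at -1.68 ± 0.20, Gdf3 at 1.58 ± 0.08 and Tcf4 at 1.46 ± 0.10.

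After 4OHT in Esrrb fl/fl cells, 10 of the 31 genes tested rose and none fell, 32.3% beside 16.7% of all genes, with a median log2 fold change of 0.439. The number called was also 10 with the block (of 31, beside 17.7% of all genes) and without replicate 1 (of 32, beside 17.2%). With DESeq2's test it was 10 of 44, a smaller share of the list, and the share of all genes called there is not given. Bmp1, a protease that cleaves chordin, rose from 0.418 ± 0.147 to 5.20 ± 0.35 CPM (log2 fold change 3.62 ± 0.24, edgeR adjusted p = 8.37e-06). Gata2, a transcription factor gene that BMP signalling induces in early mesoderm and ectoderm, rose by 3.30 ± 0.29, the antagonist gene Nbl1 by 2.90 ± 0.25, Msx1 by 2.87 ± 0.29 and the ligand gene Bmp8b by 2.51 ± 0.37, with 0.380 CPM in the untreated cells. Bmp8b shares exon sequence with Gm17244 and Ppie on the opposite strand, 12.2% of its exon length.

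Of the 7 secreted antagonists and modulators tested, 5 rose, beside 12.8% of all genes called higher. These were Bmp1, Nbl1, Nog, Chrd and Fst, of which the last 3 are named here after their values were seen. Nog, which encodes noggin, had at most 2 counts in any untreated sample and 27 to 45 counts after 4OHT, at least 12.4-fold higher against 3 counts per library. Chrd rose by 2.46 ± 0.27, from 0.761 ± 0.290 to 4.23 ± 0.77 CPM, and Fst by 1.51 ± 0.09, from 54.5 ± 3.69 to 155 ± 18.4 CPM. Gdf3, a modulator also named here after its values were seen, went the other way. It had 148 ± 10.1 CPM without and 86.6 ± 2.71 CPM with 4OHT and was not called. Thus ligands, antagonists and targets were all among the genes that rose, and the plot of the pathway list shows them by role. None of the 6 Smads and ubiquitin ligases tested by edgeR was called, nor any of the 7 tested by DESeq2. In each test 3 of them had an unadjusted p-value under 0.05. Of the 10 receptors and co-receptors 1 was called, Eng, which rose (1.09 ± 0.07) and is named here after its value was seen. In edgeR and in DESeq2, 7 of these 10 had an unadjusted p-value under 0.05, and with the block 9. Their median log2 fold change was 0.38. The share of all genes at that unadjusted level is not given.

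**Figure D4:**
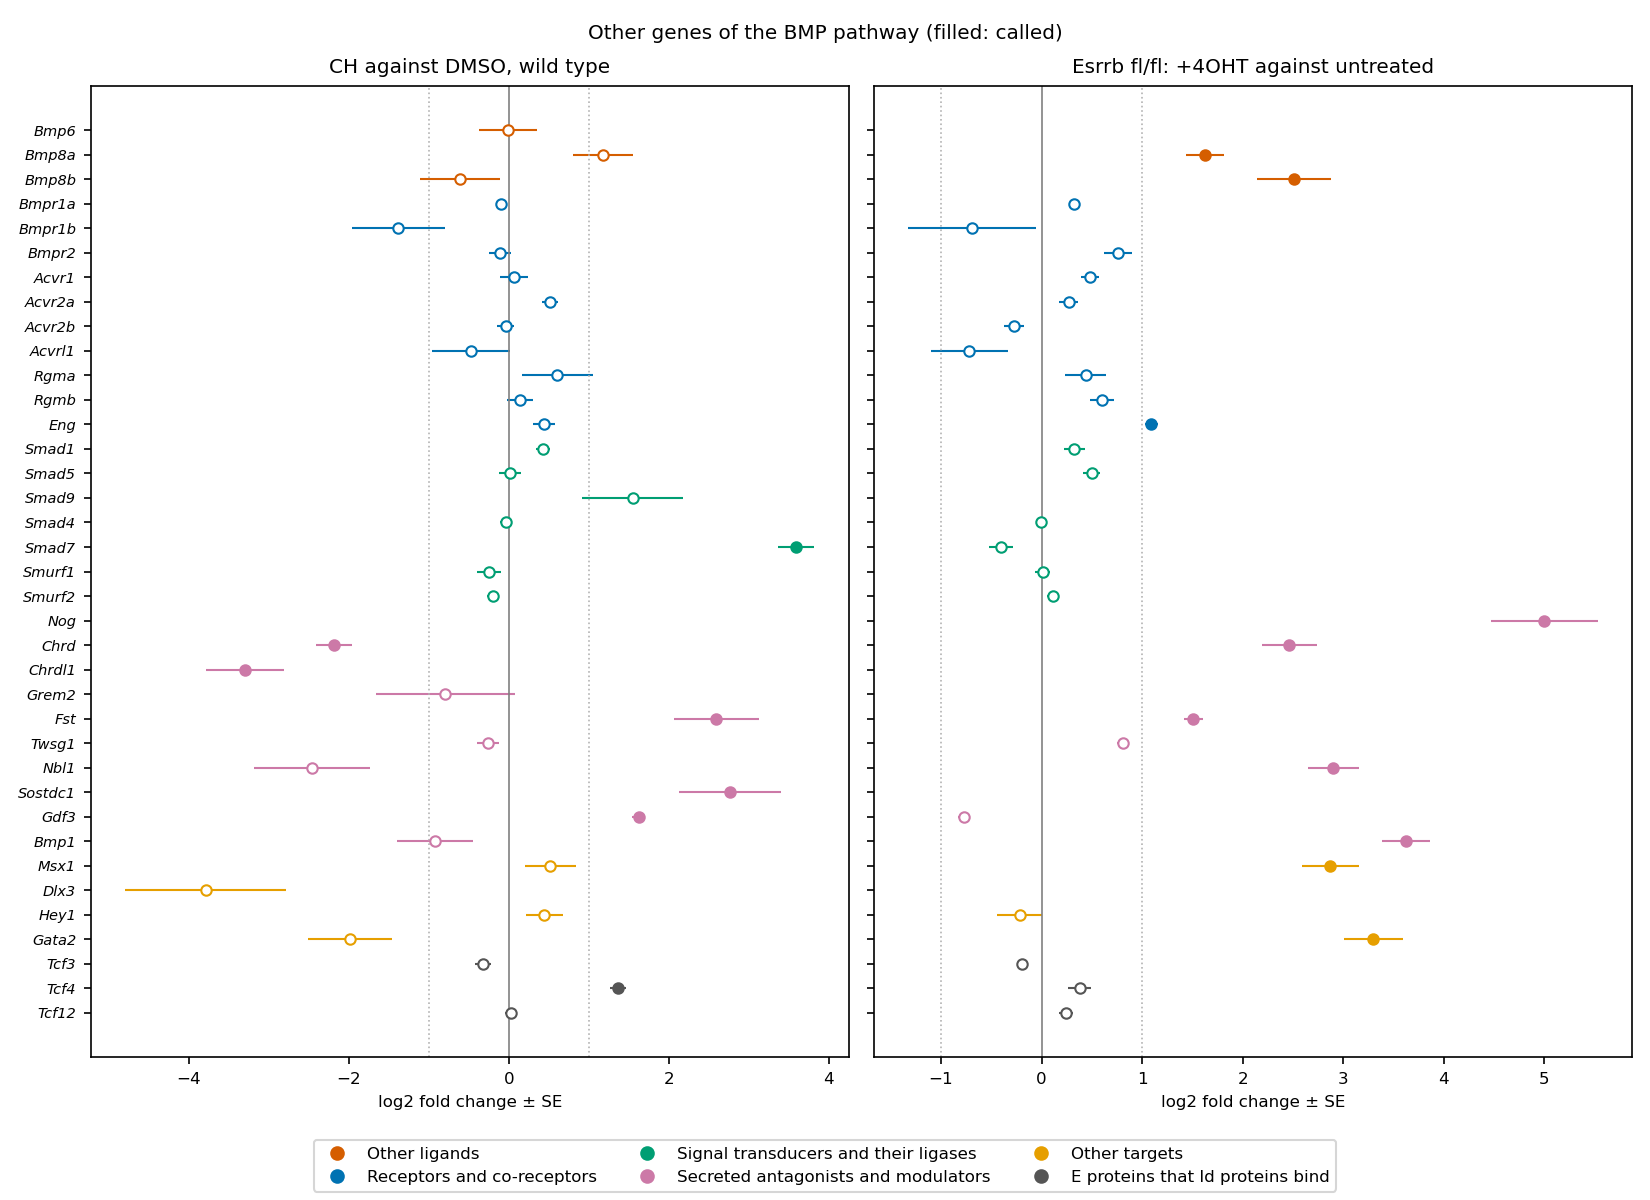
Log2 fold change ± SE of the pathway genes tested, for CH against DMSO in wild-type cells (left) and 4OHT-treated against untreated Esrrb fl/fl cells (right), with 3 samples per group, coloured by role, with filled symbols for genes called and dotted lines at a log2 fold change of 1 in either direction. Filled symbols lie on both sides of 0 on the left (5 higher, 2 lower) and only above 0 on the right (10 higher).

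Markers of pluripotent cells and of other cell states moved with these results. The summed level of 6 ES cell genes (Pou5f1, Sox2, Nanog, Zfp42, Utf1 and Dppa5a) was 1631, 1621 and 1569 CPM in DMSO and 2583, 2742 and 2959 CPM in CH, where 4 of the 6 rose and 1 fell. In Esrrb fl/fl cells it was 3195, 2977 and 3045 CPM without and 1980 CPM or less with 4OHT, where 1 of the 6 fell and the others were not called. The summed level of 6 primitive streak and mesoderm genes (T, Mixl1, Eomes, Evx1, Mesp1 and Fgf8) was 8.91, 13.9 and 14.1 CPM in DMSO and 702, 535 and 464 CPM in CH. Of the 5 that were tested, 4 rose and Eomes fell (-2.08). T, which encodes Brachyury, was the most abundant in CH with 534 CPM, and Mesp1 was at 0.0223 CPM there. The same sum was 79.5, 98.6 and 100.2 CPM in untreated and 446, 571 and 573 CPM in 4OHT-treated Esrrb fl/fl cells, where 4 of 5 rose and T went from 42.9 to 402 CPM. In 2i the sum was 119, 88.0 and 86.4 CPM, and in Fgf2/Activin 13.5, 23.1 and 21.6 CPM. Their part in the changes of the BMP genes was not tested.

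Of the 5 trophectoderm genes, Cdx2, which is also a Wnt target of the streak, was the most abundant in CH with 63.8 CPM against 0.0932 CPM in DMSO, and the sum was 119, 79.9 and 70.2 CPM in CH and 31.1, 15.0 and 11.1 CPM in DMSO. Krt7, another gene of that list, went against the sum, with 13.6 ± 6.43 CPM in DMSO and 1.09 ± 1.42 CPM in CH, without overlap but not called (log2 fold change -3.63 ± 1.10, edgeR adjusted p = 0.0201). In Esrrb fl/fl cells the trophectoderm sum was 29.2, 19.5 and 18.6 CPM without and 35.2, 28.0 and 34.5 CPM with 4OHT, and there Krt7 rose from 0.312 to 6.28 CPM and Cdx2 from 7.98 to 17.3 CPM. Tfap2c, the most abundant of the list in untreated cells, had 13.9 ± 4.31 CPM without and 8.33 ± 1.76 CPM with 4OHT, without overlap but not called. Elf5, a defining gene of trophectoderm, was at 0.135 CPM or less on average in every group. The sum of 4 neural genes, nearly all of it Nes, was 89.6, 70.7 and 70.8 CPM in DMSO, 17.7, 27.5 and 18.2 CPM in CH, 8.78, 10.4 and 10.8 CPM in 2i and 82.5, 69.5 and 68.4 CPM in Fgf2/Activin, and Nes fell between DMSO and CH (-1.94 ± 0.17). In Esrrb fl/fl cells the neural sum was 24.4, 37.1 and 37.7 CPM in untreated and 206, 209 and 210.3 CPM in treated samples, where Nes rose from 31.0 ± 7.53 to 207 ± 2.10 CPM. Pax6 went against the neural sum and fell from 1.42 to 0.432 CPM, and Sox1, which was not tested, had means of 0.575 and 0.209 CPM, while Zic1 (0.0864 and 0.464 CPM) was not tested either. The sum of 5 fibroblast genes was 49.2, 16.2 and 20.4 CPM in DMSO and 6.37, 7.65 and 5.48 CPM in CH, most of it Thy1, which fell from 27.2 ± 18.1 to 5.23 ± 1.71 CPM and is not restricted to fibroblasts, while Postn and Lum were at 0 in every DMSO sample. In Esrrb fl/fl cells the fibroblast sum was 18.2, 24.7 and 26.4 CPM without and 7.69, 10.8 and 10.8 CPM with 4OHT, where Thy1 fell from 22.6 to 6.26 CPM and Col1a2 rose from 0.207 to 2.74 CPM. There Col1a1 had means of 0.191 and 0.546 CPM and Lum of 0.0514 and 0.161 CPM, and neither was tested. The sum of 6 primitive endoderm genes was 8.94, 9.33 and 10.2 CPM in DMSO, 3.61, 2.71 and 2.64 CPM in CH, 3.56, 2.10 and 3.41 CPM in untreated and 5.16, 5.55 and 6.17 CPM in 4OHT-treated Esrrb fl/fl cells. Its members were not of 1 direction, since after 4OHT Pdgfra rose from 0.625 to 2.82 CPM and Gata4 from 0.558 to 1.35 CPM while Sox7 fell from 1.06 to 0.112 CPM. Dab2 was not called, and Gata6 and Sox17 were not tested there. Between DMSO and CH, Dab2 fell from 5.61 to 1.27 CPM and Sox7 from 1.59 to 0.280 CPM, while Pdgfra had 0.264 and 0.628 CPM and was not called. The part of these lists in the changes of the BMP genes was not tested either.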

How the data were processed

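Poly(A) RNA of 18 samples was sequenced. Reads were mapped by the authors with TopHat2 to mm10 and assigned to Ensembl genes of GRCm38 by HTSeq with no use of strand, and the deposited values are whole-number counts without normalisation. Overlapping genes on opposite strands therefore share counts. Groups and replicate numbers came from the labels. The labels do not say whether samples came from separate cultures, so p-values measure only the spread between samples, which may be technical.

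Counts were fitted in R 4.3.3 with edgeR 4.0.16 (limma 3.58.1), with TMM scaling and filterByExpr, using glmQLFit and glmQLFTest with Benjamini-Hochberg adjustment over all genes tested. The 12 wild-type samples were fitted together, with 16413 genes, and the 6 samples of Esrrb fl/fl cells apart, with 14893. The thresholds for calls were those the study used, a log2 fold change beyond 1 in either direction with an adjusted p-value below 0.01. CPM were scaled within each of the 2 fits. The functions were tested on simulated data.

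Same-numbered samples of different groups deviated together, with correlations of at least 0.37 in every pair of samples and mean correlations between 0.44 and 0.74 over the 7 comparisons, against -0.28 to -0.18 for different numbers. The pairing comes from the labels' replicate numbers and this check. Replicates did not agree within sampling noise (chi-square per gene at least 1.46), so none was counted as deposited more than once.

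The counts of calls cover all of the 10 genes that were tested in a comparison, but not every gene is named in every comparison. Of the pathway list, the 5 genes with the largest change among those called at a mean of at least 1 CPM were named in a comparison, as were the 3 genes most like each member called in wild-type cells. The 10 genes and the lists were chosen with earlier results of these data known. Alternatives were DESeq2 1.42.0, its size factors, no filter, no minimum fold change, the block, only the 6 samples compared, and each sample left out. Shared sequence was sought with blastn 2.17.0 (at least 75 bases at 95% identity), and promoter windows came from RefSeq (GRCm38). Counts are of reads and not molecules.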

Additional observations from a re-analysis of the deposited data

How the results depend on the processing

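No called result changed direction. Estimates near 0 that were not called crossed 0 under some alternatives, for Bmp4, Bmp7, Id2, Smad6 and Bambi, without becoming calls. Without replicate 1 of every group, for example, Smad6 between CH and DMSO went from -0.16 to 0.27 and Bmp7 between CH and Fgf2/Activin from 0.54 to -0.15. Of the 10 genes, the numbers called moved by more than 1.5 times with DESeq2's test, to 1 between 2i and CH and 4 between CH and Fgf2/Activin, with the replicate block, to 1 between 2i and CH and 2 between Fgf2/Activin and DMSO, and with only the 6 samples compared, to 0 between CH and DMSO and 0 between Fgf2/Activin and DMSO. The cause was not tested. For the fits of only the 6 samples compared, the share of all genes called is not given, so those counts have no background beside them. The block changed no call of the 10 genes other than those of Id4, Id2 and Id1 given above. When samples were left out, replicate 1 of every group at once included, the numbers ranged from 0 to 4 between CH and DMSO, 0 to 2 between 2i and CH, 0 to 3 between Fgf2/Activin and DMSO, 1 to 4 between 2i and Fgf2/Activin, 2 to 4 between 2i and DMSO, 1 to 4 between CH and Fgf2/Activin, and 5 to 7 in the Esrrb fl/fl cells. Fits that leave 2 samples in a group take the spread from the other samples. For the fits with a single sample left out, the share of all genes called is not given. The ranges can therefore not be read as particular to these genes. With DESeq2's size factors, without the filter and without a minimum fold change, every number of calls stayed within 1.5 times of the main one. At 8 counts or fewer in every wild-type sample, changes of Bmp2 and Msx2 were not measurable there.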
